A study of Mus musculus with 3 samples.

Results

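The retinoic acid genes described here are 9 genes of uptake, synthesis, binding, reception and breakdown: Stra6, Aldh1a1, Aldh1a2, Aldh1a3, Crabp1, Crabp2, Rarb, Cyp26a1 and Cyp26b1. They were chosen by name, and all 9 were among the 22072 gene symbols listed. RNA was sequenced from sorted hindlimb cells of mouse embryos that were positive for ScxGFP, a green fluorescent reporter that marks activity of Scx, the gene of the tendon transcription factor scleraxis. The 3 groups were E11.5, E13.5 and E15.5 embryos of mixed strain background, with 18, 12 and 11 hindlimbs pooled into 1 library each. All groups carried the reporter and were sorted for it, the labels do not describe the sequences that drive it, and embryos within a pool cannot be told apart.

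Retinoic acid is a signalling molecule made from vitamin A. STRA6 is a membrane receptor that takes up retinol from its carrier in blood, retinol dehydrogenases such as RDH10 oxidise retinol to retinal, and the retinal dehydrogenases ALDH1A1, ALDH1A2 and ALDH1A3 oxidise retinal to retinoic acid. In the cell, CRABP1 and CRABP2 bind it. Retinoic acid receptors (RARA, RARB, RARG) paired with retinoid X receptors act on target genes, and CYP26 enzymes break it down. In the limb bud, retinoic acid is known for its place in proximal identity, with CYP26B1 keeping the distal bud low in it, and later for its part in interdigital tissue and in skeletal differentiation.

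Values are FPKM, read fragments per transcript length and sequencing depth, summed over the transcripts of a gene. Differences are given on the log2(FPKM + 1) scale, which understates those of low genes, and a gene is counted as higher or lower from 2-fold on that scale. Intervals are approximate 95% Poisson intervals that rest on an estimated depth of about 13900000, 12300000 and 17300000 reads in stage order, and they cover counting error only. A transcript of 2000 bases at 1 FPKM had a counting error, as 1 standard deviation, of 12.7% in the shallowest library. The 95% intervals are wider than that. With 1 library per stage there is no replicate check and no p-value, and each difference is one between 2 libraries. Fewer cells of a type and less RNA per cell cannot be told apart in sorted bulk RNA. Scx itself, the check of the sort, stood at 375, 410 and 213 FPKM.

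Over the 3 libraries the breakdown gene Cyp26b1, the uptake gene Stra6 and the binding gene Crabp2 were highest at E11.5, while Aldh1a3, Crabp1 and Rarb were lowest there. Of the 9 genes, 7 had a mean of at least 1 FPKM and entered the comparisons, while Aldh1a1 and Cyp26a1 averaged less. Aldh1a3, at 0.0231 FPKM at E11.5, reached that mean only through its later libraries. Its entry and its calls as higher are therefore not independent. From E11.5 to E13.5, 2 of 7 were higher (Aldh1a3 and Crabp1) and 1 was lower (Cyp26b1), where 6.00% of 10938 compared genes were higher and 1.02% lower. From E13.5 to E15.5, 1 of 7 was higher (Aldh1a3) and 1 lower (Stra6), against 3.58% and 0.713% of 10934 genes (2.59% and 1.27% with libraries rescaled to equal FPKM sums). Over both steps, 2 of 7 were higher (Aldh1a3 and Crabp1) and 3 lower (Stra6, Crabp2 and Cyp26b1), against 12.6% and 2.14% of 10939 genes. The genes were picked with earlier results of these data known, so their shares are descriptions. The comparisons share libraries and are not independent. Median differences of the 7 genes were 0.04, 0.05 and -0.46, beside 0.07, 0.04 and 0.07 over all compared genes.

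**Figure D1:**
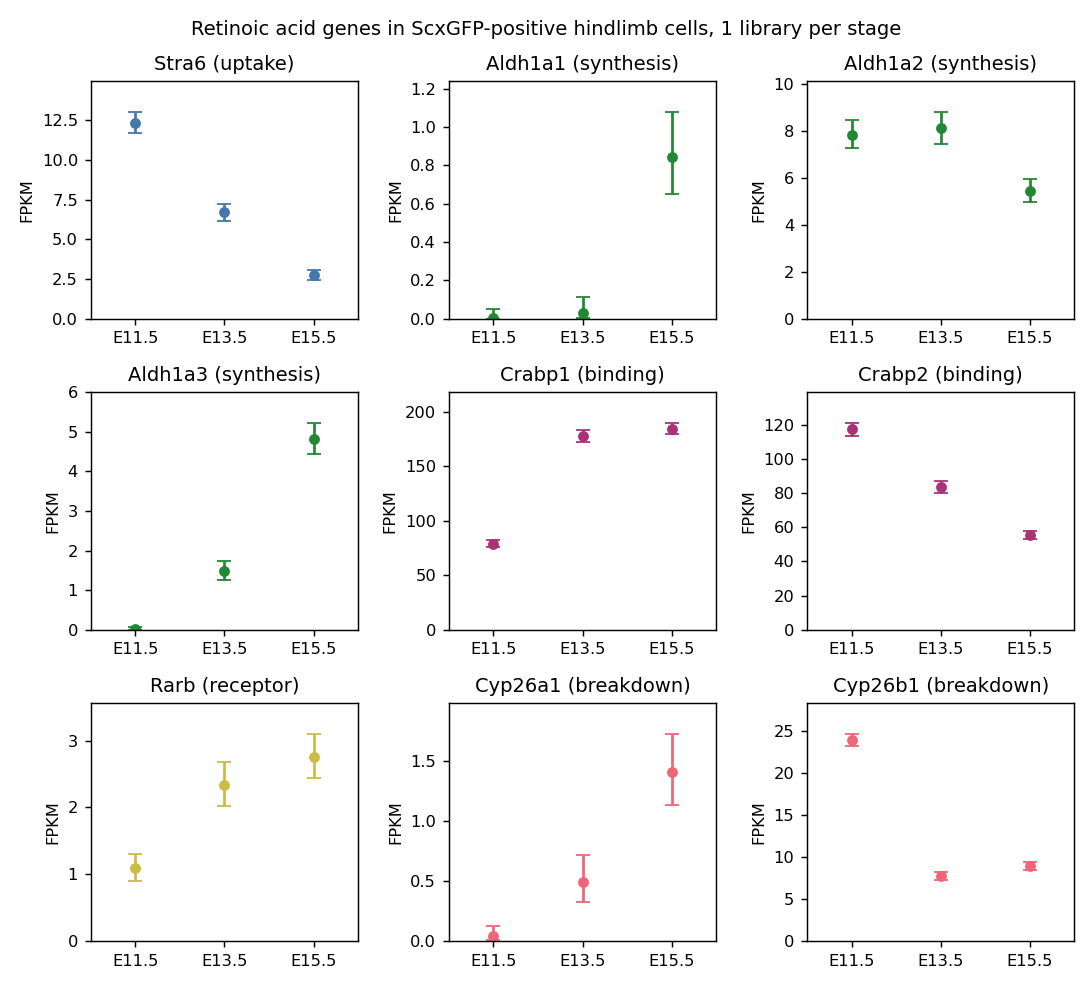
FPKM (vertical axis, from 0, a separate scale in each panel) of the 9 retinoic acid genes at each stage, 1 library per point, with approximate 95% Poisson intervals for counting error. Stra6 and Crabp2 step down over the 3 libraries, Aldh1a3 and Cyp26a1 step up, and Cyp26b1 drops from 23.9 to 7.72 FPKM by E13.5. Rarb is lowest at E11.5, and its later intervals overlap.

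Uptake was represented by Stra6, the gene of the retinol receptor (mm9, chromosome 9, 57976895 to 58001804). Its level was 12.3 FPKM in the E11.5 library (interval 11.7 to 13.02), 6.69 in the E13.5 library (6.17 to 7.25) and 2.76 in the E15.5 library (2.45 to 3.10). The 3 intervals did not overlap, and each later library was lower than the one before. On the log2(FPKM + 1) scale the difference was -0.79 for the earlier step, -1.03 for the later and -1.83 over both. Of all compared genes, 0.430% had a lower value than Stra6 over both steps.

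Stra6 has 4 listed transcripts, to which reads are assigned by estimation. NM_001162475 held 82.6%, 46.4% and 73.0% of the gene's FPKM in stage order. Taken alone, this transcript stood at 10.2, 3.10 and 2.01 FPKM, so that the earlier step held most of its difference (-1.45) and the later step did not reach 2-fold (-0.45). NM_009291, which starts further along the gene, was estimated at 0.460 and 1.66 FPKM at E11.5 and E13.5 and at nearly 0 at E15.5. The timing of the Stra6 decrease thus depended on whether transcripts were summed, while the lower level over both steps did not. Cyp26b1 is the other gene with several listed transcripts, and NM_001177713 held 97.1% of its FPKM at E11.5 and 91.9% at E15.5.

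**Figure D2:**
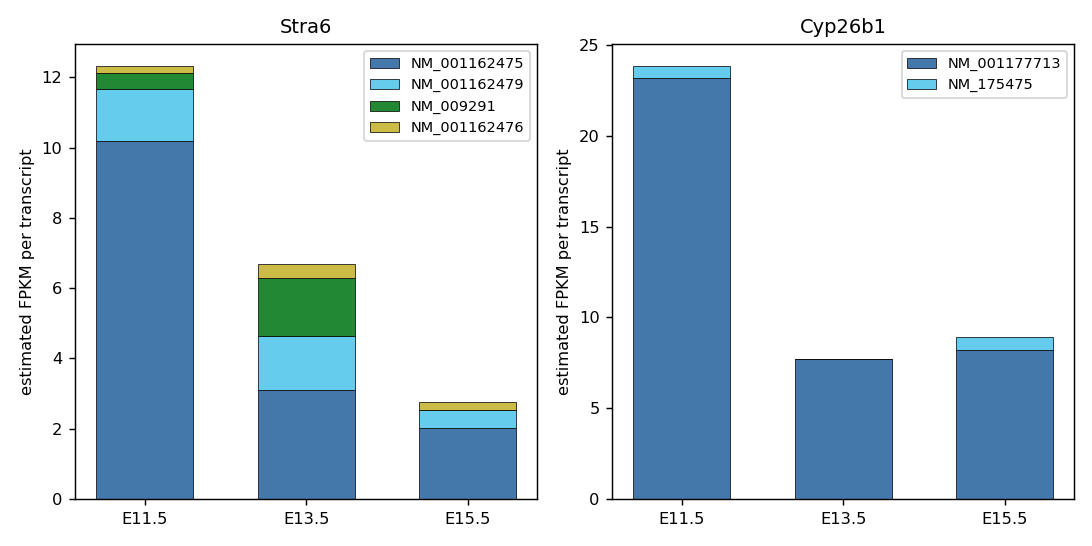
Estimated FPKM of each listed RefSeq transcript of Stra6 (left) and Cyp26b1 (right), stacked, at the 3 stages (1 library each, no error shown). NM_001162475 is the main Stra6 transcript at E11.5 with 10.2 FPKM, and NM_009291 is visible mainly at E13.5 with 1.66 FPKM.

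Among the synthesis genes, Aldh1a2 was the only one with an appreciable level at E11.5, and Aldh1a3 joined it at later stages. Aldh1a2, which encodes the main retinoic acid-producing enzyme of the early embryo (chromosome 9, 71063596 to 71144050), was at 7.85 FPKM in the E11.5 library (7.27 to 8.47), 8.13 in the E13.5 library (7.48 to 8.82) and 5.45 in the E15.5 library (4.96 to 5.97). The first 2 intervals overlap and the third lies below both. Its log2(FPKM + 1) difference was 0.04 for the earlier step and -0.50 for the later, short of 2-fold.

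Aldh1a3 (chromosome 7, 73535779 to 73572363), whose enzyme is known from the developing eye and nasal region, was at 0.0231 FPKM in the E11.5 library, about 3 reads, then 1.48 in the E13.5 library (1.26 to 1.73) and 4.82 in the E15.5 library (4.44 to 5.22). It was higher in each later library, by 1.28 and then 1.23 on the log2(FPKM + 1) scale. The plain FPKM ratio of E15.5 to E13.5 was 3.25 (interval 2.72 to 3.9). With so few reads at E11.5, the ratio of E13.5 to E11.5 had an interval of 21.5 to 317.0. Aldh1a1 (chromosome 19, 20676472 to 20717952) was below the level of 1 read at E11.5, at 0.0298 FPKM at E13.5 (about 1.88 reads) and at 0.844 FPKM at E15.5 (0.649 to 1.08, about 63.7 reads). It was thus clearly measured in the E15.5 library alone.

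By share of the summed FPKM of the 3 synthesis genes, Aldh1a2 made up 99.7%, 84.3% and 49.0% in stage order. Aldh1a3 made up 15.4% and 43.4% at the later 2 stages, and Aldh1a1 7.59% at E15.5. The sum itself was 7.88, 9.64 and 11.1 FPKM, so the makeup differed more between libraries than the total. Reads of Aldh1a1 may be shared with its close copy Aldh1a7, since their annotated transcripts have an identical stretch of 100 bases. Aldh1a7 was listed at 0.0867, 0.138 and 0.0254 FPKM. In the other pairs compared within the Aldh1a, Crabp, Cyp26 and Rar families the longest identical stretch was 26 bases, shorter than the 42.5 bases taken as 1 read.

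The binding protein genes were the most abundant of the 9 in every library, and their order switched. Crabp1 (chromosome 9, 54612615 to 54620916), known from embryonic mesenchyme and neural crest, was at 79.1 FPKM in the E11.5 library (75.8 to 82.5), 178 in the E13.5 library (172 to 183) and 184 in the E15.5 library (180 to 190). The E11.5 library stood below the later 2, whose intervals overlap. Its log2(FPKM + 1) difference was 1.16 for the earlier step and 0.05 for the later. That small later difference was -0.15 when libraries were rescaled to equal FPKM sums.

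Crabp2 (chromosome 3, 87752615 to 87757294), whose protein passes retinoic acid to the receptors in the nucleus, was at 117 FPKM in the E11.5 library (114 to 121), 83.4 in the E13.5 library (80.04 to 86.8) and 55.4 in the E15.5 library (52.9 to 57.9). No intervals overlapped, and each later library was lower. Its log2(FPKM + 1) differences were -0.49, -0.58 and, over both steps, -1.07, and only the last passed 2-fold. The FPKM ratio of Crabp1 to Crabp2 was 0.675 in the E11.5 library, 2.13 in the E13.5 library and 3.33 in the E15.5 library. The sum of both genes was 196, 261 and 240 FPKM. Crabp1 ranked 252nd, 104th and 128th among all genes by FPKM, and Crabp2 171st, 220th and 430th.

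The receptor gene Rarb (chromosome 14, 17263354 to 17407724) is both a mediator and a classic target of retinoic acid. It was low in each library, at 1.09 FPKM in the E11.5 library (0.898 to 1.31), 2.33 in the E13.5 library (2.02 to 2.68) and 2.76 in the E15.5 library (2.45 to 3.10). E11.5 lay below the later 2, whose intervals overlap. The log2(FPKM + 1) differences were 0.67, 0.17 and 0.85, none past 2-fold, whereas with a pseudocount of 0.1 they were 1.04 for the earlier step and 1.27 over both, past 2-fold. The plain FPKM ratio of E13.5 to E11.5 was 2.15 (1.7 to 2.72). Of the 3 retinoic acid receptor genes Rarb was the lowest in every library, with 4.72%, 8.94% and 9.63% of their summed FPKM.

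In breakdown, Cyp26b1 was the main gene and was highest at E11.5. Cyp26b1 (chromosome 6, 84521408 to 84543902), the CYP26 enzyme gene of the distal limb bud, was at 23.9 FPKM in the E11.5 library (23.2 to 24.6), 7.72 in the E13.5 library (7.28 to 8.19) and 8.90 in the E15.5 library (8.46 to 9.35). The E11.5 library stood far above the later 2. Its log2(FPKM + 1) difference was -1.51 for the earlier step and 0.18 for the later, the latter 0.001 with equal FPKM sums. Of all compared genes, 0.293% had a lower value than Cyp26b1 for the earlier step.

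Cyp26a1 (chromosome 19, 37772298 to 37776026), which is strongly induced by retinoic acid in many tissues, was at 0.0397 FPKM in the E11.5 library (about 2.68 reads), 0.491 in the E13.5 library (0.324 to 0.714) and 1.41 in the E15.5 library (1.14 to 1.72). Each later library was higher, opposite in direction to Cyp26b1 at the earlier step. The ratio of E15.5 to E13.5 was 2.87 (1.85 to 4.57) on the FPKM scale, and against E11.5 it had an interval of 11.1 to 199.0. The third family gene, Cyp26c1, was listed at 0 at E11.5 and E13.5 and at 0.102 FPKM at E15.5. Cyp26b1 made up 99.8%, 94.0% and 85.5% of the summed FPKM of the 3 genes.

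Rarb and Cyp26a1, both chosen as retinoic acid genes, share a sequence feature of their promoters. The promoters below, from 250 bases before to 50 bases after the annotated start (RefSeq, GRCm38.p6), are shown because each holds a DR5 element, the arrangement bound by retinoic acid receptors. It was searched on both strands as 2 half-sites in the same orientation with 5 bases between them, each in one of the 4 common spellings of the retinoic acid receptor half-site. Capitals mark the element. The Rarb promoter is chr14:16575427-16575726, minus strand, and the Cyp26a1 promoter chr19:37697558-37697857, plus strand.
Rarb: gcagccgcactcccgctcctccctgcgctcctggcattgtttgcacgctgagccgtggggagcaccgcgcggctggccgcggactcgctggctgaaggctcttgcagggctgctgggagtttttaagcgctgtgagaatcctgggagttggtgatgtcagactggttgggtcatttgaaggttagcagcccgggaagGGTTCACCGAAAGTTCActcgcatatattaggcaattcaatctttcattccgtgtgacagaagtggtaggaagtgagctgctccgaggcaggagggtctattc
Cyp26a1: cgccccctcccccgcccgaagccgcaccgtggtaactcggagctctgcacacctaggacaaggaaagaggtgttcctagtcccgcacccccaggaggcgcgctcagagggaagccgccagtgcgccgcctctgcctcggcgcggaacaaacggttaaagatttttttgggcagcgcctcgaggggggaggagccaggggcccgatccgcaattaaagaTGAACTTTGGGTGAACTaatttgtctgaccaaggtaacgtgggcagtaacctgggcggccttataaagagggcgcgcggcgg

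In Rarb the element ran from 53 to 37 bases before the annotated start, on the strand of the gene. In Cyp26a1 it ran from 32 to 16 bases before the start, on the opposite strand, where it reads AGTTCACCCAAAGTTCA. Read on their own strands, the elements were identical at 15 of 17 positions. A DR5 element was found in 32 of 32851 promoter windows of this length (0.0974%). The 9 genes were chosen for their part in the retinoic acid pathway. That share therefore does not measure how unexpected the element is in Rarb and Cyp26a1. The table held promoters of 7 of the 9 genes, all but Aldh1a3 and Crabp2, and no window of Stra6, Aldh1a1, Aldh1a2, Crabp1 or Cyp26b1 held the element. The same half-sites spaced by 1 base (DR1) or 2 bases (DR2), which do not overlap the DR5 elements shown, were in no window of these genes, against 0.222% and 0.268% of all windows. A match describes letters in the window, and binding was not measured. Both genes with the element were lowest in the E11.5 library, as were Aldh1a1, Aldh1a3 and Crabp1.

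**Figure D3:**
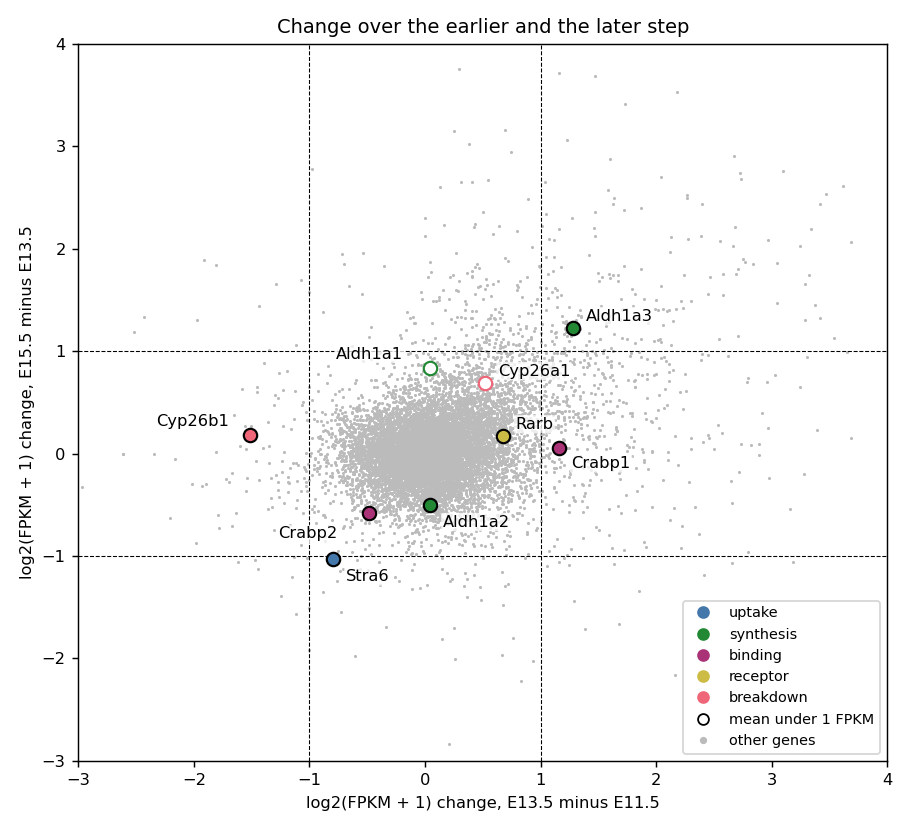
Difference in log2(FPKM + 1) from E11.5 to E13.5 (horizontal) and from E13.5 to E15.5 (vertical) for 10928 genes (grey; 10 lie outside the axes) and the 9 retinoic acid genes (coloured by role; open circles averaged under 1 FPKM). Dashed lines mark 2-fold; Cyp26b1 lies left of them at -1.51, Aldh1a3 is past them on both axes at 1.28 and 1.23, and Stra6 is below at -1.03.

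Set side by side, the summed FPKM of synthesis genes was below that of breakdown genes at E11.5 and near it later. The ratio of the Aldh1a sum to the summed Cyp26a1 and Cyp26b1 was 0.330 in the E11.5 library (0.304 to 0.358), 1.17 in the E13.5 library (1.07 to 1.29) and 1.08 in the E15.5 library (0.999 to 1.16). For the leading gene of each role, Aldh1a2 over Cyp26b1, it was 0.329, 1.05 and 0.612. The E11.5 ratio was the lowest by either measure, and at E15.5 the ratio of sums stood above that of the leading genes, where Aldh1a3 held a large share of the synthesis sum. RNA levels do not give enzyme activity, and retinoic acid itself was not measured.

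**Figure D4:**
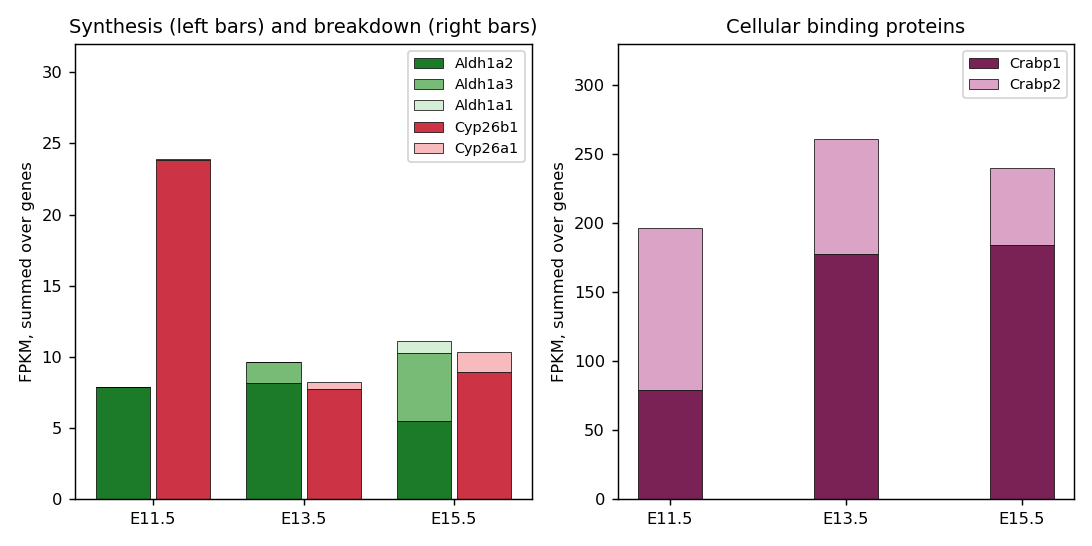
Left, FPKM summed over the synthesis genes (left bar of each pair) and the breakdown genes (right bar) at each stage; right, FPKM of Crabp1 and Crabp2, stacked (1 library per stage, no error shown). Breakdown exceeds synthesis at E11.5 (23.9 against 7.88 FPKM), and the Crabp1 part of the binding sum grows from 79.1 to 184 FPKM.

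Ordered by level, Crabp2, Crabp1, Cyp26b1, Stra6, Aldh1a2 and Rarb followed each other with separate intervals at E11.5. Cyp26a1, Aldh1a3 and Aldh1a1 came last with overlapping ones. At E13.5 the order was Crabp1, Crabp2, Aldh1a2, Cyp26b1, Stra6, Rarb, Aldh1a3, Cyp26a1 and Aldh1a1, and only Aldh1a2 and Cyp26b1 overlapped their neighbour. At E15.5 it was Crabp1, Crabp2, Cyp26b1, Aldh1a2, Aldh1a3, Stra6, Rarb, Cyp26a1 and Aldh1a1, with overlap between Aldh1a2 and Aldh1a3 and between Stra6 and Rarb. The levels of Stra6 and Rarb, which were 12.3 and 1.09 FPKM at E11.5, had become equal at 2.76.

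Other genes of the pathway were taken from a list of 56 genes, of which 37 had a mean of at least 1 FPKM and entered each comparison. From E11.5 to E13.5, 2 of 37 were higher and 3 lower, against 6.00% and 1.02% of all compared genes. From E13.5 to E15.5, 3 were higher and 0 lower, against 3.58% and 0.713%, and over both steps 7 were higher and 2 lower, against 12.6% and 2.14%. Their median differences were 0.17, 0.21 and 0.29. In retinol handling, 2 of 5 transport and storage genes (Rbp4 and Scarb1) and 3 of 8 interconversion genes (Rdh10, Dhrs3 and Adh1) were higher over both steps and 0 lower. Adh1 reached the mean of 1 FPKM only through its E15.5 level, so its entry and its call are not independent. The same holds for Nr2f1, counted as lower at the earlier step and over both, through its E11.5 level.

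Among these, Rdh10, which encodes the retinol dehydrogenase that makes retinal for the ALDH1A enzymes, was at 1.08, 3.47 and 3.25 FPKM. Its log2(FPKM + 1) difference over both steps was 1.03, and it fell short of 2-fold at 0.99 with size factors and 0.91 with equal FPKM sums. Dhrs3, the gene of an enzyme that turns retinal back to retinol, was at 3.79, 6.59 and 10.8 FPKM, higher in each later library and past 2-fold over both steps (1.30). Rbp4, which encodes the retinol carrier recognised by STRA6, was at 1.87, 3.19 and 9.42 FPKM, while its receptor gene Stra6 was lower with stage. Adh1, an alcohol dehydrogenase gene, was listed at 0 at E11.5 and at 0.374 and 3.24 FPKM later, and Scarb1, a lipoprotein receptor gene, was at 1.95, 3.55 and 6.19. Lrat, whose enzyme stores retinol as ester, stayed at or below 0.0669 FPKM.

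Among the receptors other than Rarb, the 5 nuclear receptor genes that averaged at least 1 FPKM were Rara, Rarg, Rxra, Rxrb and Ppard, and 0 of 5 passed 2-fold in any comparison. With 5 genes, that count is near the shares of all compared genes given above. Rara was at 11.0, 14.5 and 19.0 FPKM and Rarg at 10.9, 9.21 and 6.83, level with each other at E11.5 and apart at E15.5. Rxra was at 4.95, 7.06 and 8.32 FPKM, Rxrb at 5.55, 5.65 and 6.82 and Ppard, whose protein pairs with retinoid X receptors, at 3.22, 3.63 and 5.16. Rxrg, which averaged less than 1 FPKM, was at 0.189, 1.06 and 0.668. Fabp5, whose protein also carries retinoic acid, was at 32.7, 19.3 and 39.4 FPKM, lowest at E13.5. Of 11 cofactor genes, the coactivator gene Ncoa1 was higher (2.48, 7.86 and 9.84 FPKM) and Nr2f1, which encodes an orphan receptor, was lower (3.42, 0.963 and 0.782). Both passed 2-fold at the earlier step, where 6.00% of all compared genes were higher and 1.02% lower. Nr2f1 reached the mean of 1 FPKM only through its E11.5 level, so its entry and its call as lower are not independent. With 11 genes, 1 call in a direction says little about cofactors as a group.

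Of the list of genes known to respond to retinoic acid, 7 of 14 averaged at least 1 FPKM. Among these only Meis1, Meis2 and Rarres2 passed 2-fold in any comparison, and they went both ways. At the earlier step 0 of 7 were higher and 2 lower, against 6.00% and 1.02% of all compared genes. Meis1 and Meis2, homeobox genes of the proximal limb, were at 13.97, 4.48 and 7.61 FPKM and at 16.1, 5.04 and 6.28 FPKM. Both were more than 2-fold lower at E13.5 than at E11.5, at -1.45 and -1.50. With its highest transcript in place of the sum, Meis2 was short of 2-fold at -0.74. Rarres2, the chemerin gene, was at 1.04, 1.88 and 7.20 FPKM, past 2-fold higher at the later step. Tgm2, among those under the mean of 1 FPKM, was at 0.200, 0.466 and 1.32 FPKM. Hoxb1 was listed at 0 in all 3 libraries.

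**Figure D5:**
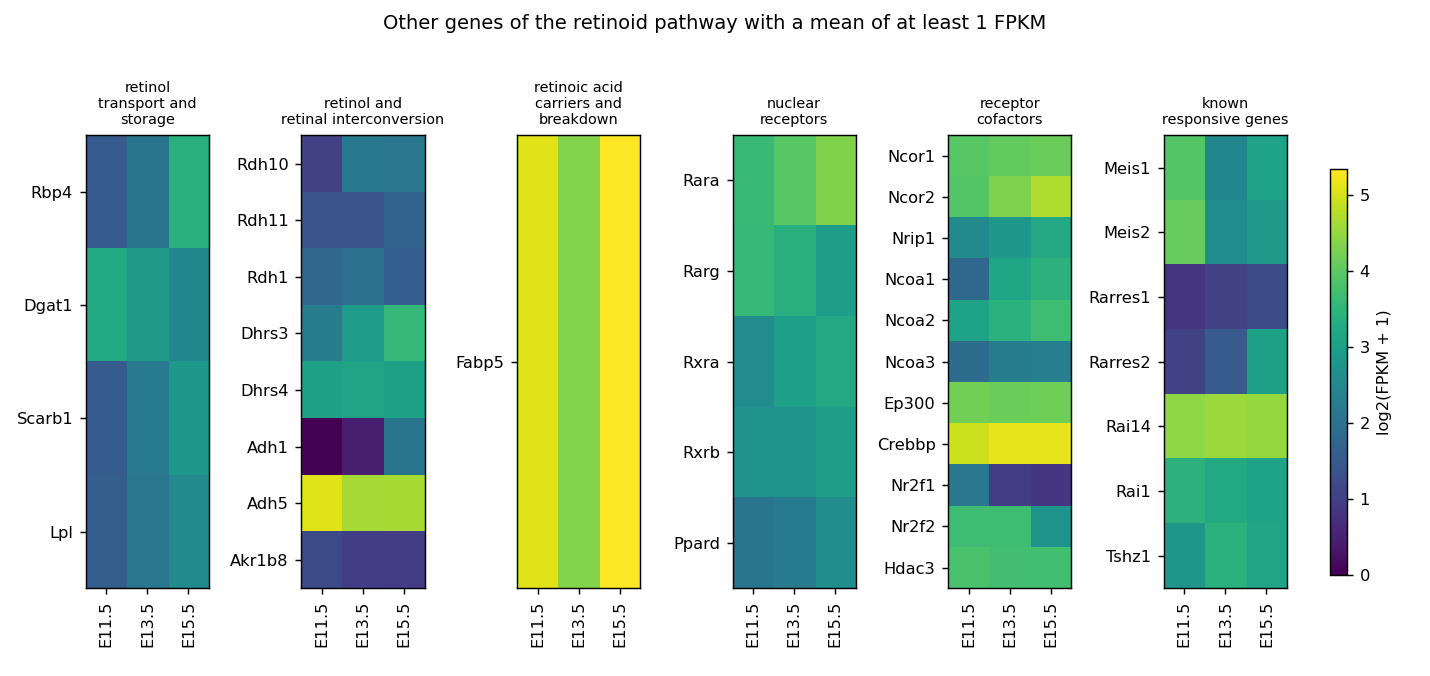
Colour gives log2(FPKM + 1) of 36 of the 37 other retinoid pathway genes with a mean of at least 1 FPKM, grouped by role, at the 3 stages (1 library each). Rbp4, Dhrs3 and Rarres2 brighten with stage, Meis1 and Meis2 are brightest at E11.5, and Ep300 and Hdac3 keep nearly one colour.

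The genes with the most similar profile over the 3 libraries were found by the distance between log2(FPKM + 1) values centred on each gene's mean, among 10927 others. For Cyp26b1 they were Snora21 (distance 0.0646), Meis2 (0.0743) and Ifitm1 (0.10), and 12 genes lay within 0.25. For Stra6 they were Gstm7, Mir3095 and Igsf9, with 19 genes within 0.25. For Aldh1a3 they were Tagln2, Fosl2 and Rcn3 (67 within 0.25), for Crabp1 Cacna2d1, E330013P04Rik and 6430704M03Rik (163), and for Crabp2 they included Mtf2 and Marcksl1 (242). The profiles of Rarb (Arpc5, Klhl22 and Slc25a32) and Aldh1a2 (Top2b, Zfp810 and Mea1) were common, with 942 and 1279 genes within that distance. A profile of 3 values is little to match on, so close distances arise readily where many genes lie.

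Markers of other tissues moved with stage as well, though the members of a list did not all move together. The summed FPKM of 12 skeletal muscle markers was 14.8, 71.5 and 238, and that of 10 cartilage markers 151, 236 and 337. The 10 genes listed as dermal and connective fibroblast markers summed to 174, 417 and 822 FPKM, including Tcf4 at 36.7, 44.3 and 41.9. The 15 interdigital and limb bud patterning markers summed to 203, 160 and 86.3 FPKM, with Shh and Fgf8 under 1 FPKM throughout. Within the cartilage list Col2a1 stood at 67.3, 138 and 230 FPKM and Sox9 at 56.2, 41.0 and 22.5. Within the fibroblast list Col3a1 stood at 42.5, 213 and 599 FPKM and Tbx18 at 18.4, 12.25 and 6.37. Hoxd13 of the patterning list was highest at E13.5, at 29.5, 47.8 and 16.5 FPKM in stage order. Endothelial markers (8 genes) summed to 0.987, 2.77 and 9.20 FPKM and epidermal markers (8 genes) to 4.06, 7.14 and 11.53. At E15.5, 3 of the 8 endothelial markers (Kdr at 1.83, Tek at 2.63 and Emcn at 2.87 FPKM) and 5 of the 8 epidermal ones (Krt5 highest at 3.60) were at 1 FPKM or more, while Cdh5, Pecam1, Cdh1 and Trp63 were below it in every library. Leukocyte, blood, and Schwann and neuron lists summed to at most 3.08, 15.1 and 6.56 FPKM, and perichondrium and bone markers to 6.11, 20.4 and 17.0. No list had a marker at 0 in all 3 libraries. The part of these cells in the differences of the retinoic acid genes was not tested.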

How the data were processed

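RNA of sorted ScxGFP-positive cells was measured in 3 libraries, grouped by the age in the labels. The deposited FPKM values, made by the authors, give 1 row for each of 28107 RefSeq transcripts, and the deposited coverage column is a signal equal to a constant multiple of FPKM within a library. Per the submitters' processing notes, tools were Bowtie 0.12.7 and TopHat 1.4.1 and the genome build was mm9. How strand was handled, which annotation release was used and how reads were filtered is not given in the sources used here. cDNA was amplified from little RNA with the NuGEN Ovation kit, per the labels' protocols, a further source of variation outside the counting intervals. No listed gene overlapped the 9 genes.

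Tables were joined on transcript, symbol, locus and length, because their rows are ordered differently. File starts count from 0, so 1 was added. FPKM was summed per symbol (3793 symbols have several transcripts). Genes entered a comparison if they averaged 1 FPKM or more and each transcript had status OK in both libraries, and differences used a pseudocount of 1. The 42.5 bases taken as 1 read are the most frequent value of covered bases between 20 and 80 among low transcripts of single-transcript genes over 1000 bases. Ratio intervals are exact conditional ones at 95%. Computation used Python 3.11.15, NumPy 2.4.6, pandas 2.3.3 and SciPy 1.17.1.

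The 9 genes and all lists were chosen with earlier results of these data known. Named were the 9 genes, preset receptor, carrier and retinol genes, other pathway genes past 2-fold, the 3 most similar genes of each of the 7 that passed the filter, and Scx, apart from a few genes that are not reported here; others named were chosen after their values were seen.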

Additional observations from a re-analysis of the deposited data

How the results depend on the processing

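Alternatives were a pseudocount of 0.1, no filter on low values, a mean of at least 5 FPKM, size factors, equal FPKM sums, the highest transcript in place of the sum, and status not used. Each difference of a single retinoic acid gene was recomputed where the gene passed, which gave 147 values. The filter and status settings cannot change a difference, nor can the highest transcript of a gene with 1 listed transcript. Of the 147, 130 moved by no more than the counting interval reaches to either side of its centre, and 17 moved further. Many of the 130 could not move, so their number is no measure of stability. Of all values 1 changed sign, the later-step value of Crabp1 with equal FPKM sums (0.05 to -0.15). For genes averaging at least 1 FPKM, 4 calls changed: Rarb became higher at the earlier step and over both with a pseudocount of 0.1, and with its highest transcript Stra6 became lower at the earlier step and lost the call at the later. With the highest transcript, 2 of the 7 compared genes were lower at the earlier step and 0 at the later. Of all compared genes, 1.32% and 0.992% were lower with that setting. Asking for a mean of at least 5 FPKM left 5 of the compared genes, without Aldh1a3 and Rarb. Of these, 1 was higher at the earlier step, 0 at the later and 1 over both. On the wider list it left 24 genes. Of these, 1 was higher at the earlier step and 0 at the later, and over both 2 were higher and 1 lower. On that list 1 gene, Nr2f2, was lower at the later step with a pseudocount of 0.1 or with equal sums. Over both steps the main value of Nr2f2 was -0.97, short of 2-fold. It was past 2-fold lower there with the pseudocount of 0.1 (-1.08), size factors (-1.02), equal sums (-1.11) and the highest transcript (-1.03). Of all genes, the pseudocount of 0.1 gave 1154 higher and 191 lower at the earlier step, 189 lower at the later, and 431 lower over both. The 5 FPKM limit compared only 5772, 5769 and 5772 genes in the order of comparisons. It gave 381 and 43 (6.6% and 0.745%), 214 and 42 (3.71% and 0.728%), and 712 and 124 (12.3% and 2.15%). Equal sums gave 139 lower at the later step and 362 over both. The main counts were 656 and 112 of 10938 genes, 391 and 78 of 10934, and 1380 and 234 of 10939. Equal sums also moved the median of all genes from 0.04 to -0.13 at the later step and from 0.07 to -0.06 over both. Values under about 3 reads, those of Aldh1a1, Aldh1a3 and Cyp26a1 at E11.5 and of Aldh1a1 at E13.5, limit every ratio taken against them. No paired analysis was possible because each stage has 1 library. No library could be left out for the same reason.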
